A study of Mus musculus with 24 samples.

Results

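The genes described here build the receiving side of the nerve-muscle contact: the 5 acetylcholine receptor subunits of skeletal muscle (Chrna1, Chrnb1, Chrnd, Chrng, and Chrne), the signalling chain that gathers the receptors (Agrn, Lrp4, Musk, and Dok7), and the anchor Rapsn. These 10 genes were chosen by name for their known roles out of 56941 genes listed in the data. Enough counts for a test were present for 9 of them, among 13315 such genes, and not for Chrne. The values come from C2C12 cells, an immortal mouse myoblast line that fuses into contractile myotubes, carrying the genotype ChR2::tdTomato, in which a light-gated channel coupled to a red fluorescent protein makes the cells contract when lit. Muscle sheets on fibrin hydrogels received blue light daily in sessions of 60 min at 1, 4, or 10 Hz, and an unstimulated control carried the same transgene and was differentiated in the same horse serum and IGF-1 medium. Each of the 4 conditions had 6 biological replicates, or 24 RNA-seq libraries in all. The model has limits that bear on these genes. It is a single cell line without motor neurons, and the study's text states that the sheets, controls included, also twitched on their own, so the control was unstimulated and not inactive.

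Acetylcholine released by a motor neuron opens a channel made of alpha subunits together with beta, delta, and either gamma (the fetal form) or epsilon (the adult form). Agrin, secreted by the nerve and in another splice form by muscle, binds Lrp4, which switches on the kinase MuSK with the help of the adaptor Dok7, and rapsyn then links the receptors into clusters. In muscle, the subunit genes are known to be turned on by myogenic factors that bind the E-box (CANNTG) in their promoters, and to be turned down along the fibre by electrical activity, while a second motif, the N-box (CCGGAA), is known for expression under the nerve.

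Promoter sequences show how these motifs are spread over the genes. RefSeq (GRCm38.p6) supplied windows of 300 bases, 250 before to 50 after the start, for 7 of the 10 genes: Chrna1, Chrnb1, Chrng, Chrne, Musk, Dok7, and Agrn. The 200 bases directly before the start are printed 5′ to 3′ for 4 of them, chosen to set the alpha, fetal gamma, and adult epsilon subunits beside Dok7, the gene with the largest change. Capitals mark each CANNTG and, in Chrne only, also the CCGGAA.
Chrna1 (chr2:73580339-73580538, minus strand): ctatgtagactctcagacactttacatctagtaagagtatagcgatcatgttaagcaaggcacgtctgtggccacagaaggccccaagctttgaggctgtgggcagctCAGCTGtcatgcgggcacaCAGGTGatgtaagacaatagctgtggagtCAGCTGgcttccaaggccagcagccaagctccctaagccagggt
Chrng (chr1:87205611-87205810, plus strand): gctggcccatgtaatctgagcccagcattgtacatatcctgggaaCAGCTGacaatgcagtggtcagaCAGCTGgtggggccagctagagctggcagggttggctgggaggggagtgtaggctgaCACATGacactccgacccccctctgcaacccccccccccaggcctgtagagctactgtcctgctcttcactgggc
Chrne (chr11:70619195-70619394, minus strand): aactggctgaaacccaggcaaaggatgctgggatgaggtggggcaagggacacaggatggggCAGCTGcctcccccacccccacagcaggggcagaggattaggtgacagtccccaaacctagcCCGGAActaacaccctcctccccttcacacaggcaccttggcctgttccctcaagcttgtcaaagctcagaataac
Dok7 (chr5:35056566-35056765, plus strand, the upstream of 2 starts): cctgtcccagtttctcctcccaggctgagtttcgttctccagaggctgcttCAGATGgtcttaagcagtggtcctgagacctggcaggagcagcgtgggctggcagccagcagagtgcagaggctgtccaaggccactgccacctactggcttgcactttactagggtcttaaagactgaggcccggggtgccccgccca

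Motifs were searched on both strands of the whole windows. CANNTG, which reads the same on both strands, was found in at least 1 window of all 7 genes and in 72.3% of 32851 mouse promoter windows. CAGCTG, a form contained in CANNTG, stood at Chrna1 (92 and 44 bases before the start), Chrng (155 and 132), Chrne (138), and Musk (68), that is in 4 of the 7 genes and in 16.3% of all windows. The CCGGAA motif was found only at Chrne, 76 bases before the start, and in 14.9% of all windows. For Agrn and Dok7, which have 2 windows each, CANNTG was present in 1 of the 2. A match of letters describes the sequence and is not evidence of binding.

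RNA of the 24 libraries was counted at 8052369 to 18159144 estimated counts per library. The labels call the cells myoblasts, and myotube markers were high: the summed level of 10 myotube markers ran from 11819 to 19577 TPM (a level scaled to library size and corrected for transcript length), and that of 5 markers of undifferentiated myoblasts from 43.3 to 84.0 TPM. Within the myoblast list, Pax7 (-1.58 and -1.53) and Heyl (-1.49 and -2.02) fell and Spry1 (0.98 and 1.31) rose at 1 and 4 Hz in log2(fold change), all called. Cd34 (0.31 and 0.27, past the adjusted p) and Vcam1 (0.32 and 0.29, not past it) lay higher without a call. The summed level of 5 proliferation markers ran from 17.4 to 42.4 TPM. Of these, Cdk1 was called higher at 1 and 4 Hz (0.62 and 0.51), and Mki67 (-1.15) and Ccnb1 (-1.06) lower at 4 Hz. Top2a and Birc5 were called at neither rate. The part of these markers in the results was not tested. Nerve and Schwann cell RNA was sought with 10 and 5 markers. Chat, Slc18a3, Slc5a7, Snap25, Rbfox3, and Mnx1, which define cholinergic neurons and neurons in general, stood at or near 0. Isl1 and Syt1 were present at low levels, Syt1 with enough counts for a test. With both included, 8 of the 10 neuron markers were below a mean of 1 TPM in every condition. The summed level of the neuron list, carried by Tubb3 and Nefl, ran from 75.0 to 111 TPM without stimulation, 31.0 to 63.0 at 1 Hz, 38.7 to 58.0 at 4 Hz, and 80.4 to 129 at 10 Hz, and the Schwann list stayed between 1.67 and 3.67 TPM. The part of the Tubb3 and Nefl levels in the results was not tested. In 3 libraries (1 Hz replicates 4 and 6 and 4 Hz replicate 3) TPM lay further below CPM (counts scaled to library size by the TMM method) than elsewhere, by a median log2 difference over 11003 genes of -1.03, -1.03, and -1.17, against -0.88 to -0.47 in the other 21. The difference was not confined to them. It ran from -1.17 to -0.649 in the 4 Hz libraries and from -0.596 to -0.473 in the controls, without overlap. Leaving out the 3 libraries therefore does not remove it. These 3 also had 3.97%, 4.87%, and 8.90% of their counts in mitochondrial genes. The median library had 1.79%, and 4 Hz replicate 6, which did not stand apart in TPM, had 4.34%. Among the receptor and signalling genes, leaving the 3 libraries out changed the call of Dok7 at 1 Hz, which is given there. Of the other synapse genes 7 were then called at 1 Hz and 12 at 4 Hz.

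Whole-gene coordinates are from GENCODE M39 on GRCm39, where all 10 genes are protein coding. The order of the genes was first read per transcript length in the unstimulated controls. Chrng, the fetal gamma subunit, had the highest level at 284 ± 22.4 TPM (SD, n = 6), which placed it at rank 522 of 23820 genes above 0. Chrnd followed at 179 ± 13.4 TPM, Chrna1 at 146 ± 7.78 TPM, and Chrnb1 at 53.3 ± 3.74 TPM. Next came Rapsn at 43.8 ± 3.83 TPM and Lrp4 at 15.4 ± 1.3 TPM. Musk had 13.3 ± 1.36 TPM, Dok7 11.8 ± 1.01 TPM, and Agrn 7.57 ± 1.26 TPM. The lowest was Chrne at 0.168 ± 0.108 TPM. Over the 6 controls, 3 neighbouring pairs in this order overlapped and were not separated beyond their spread: Chrnb1 with Rapsn, Lrp4 with Musk, and Musk with Dok7. The other neighbours did not overlap, and the receptor genes of the fetal form stood above the signalling chain in each control.

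**Figure D1:**
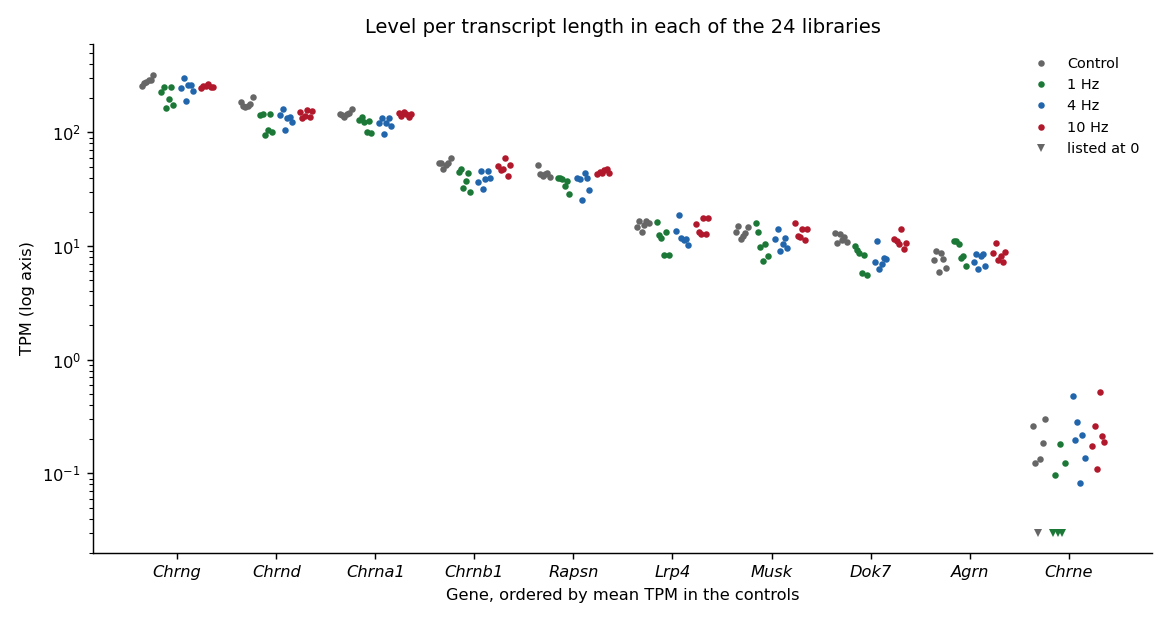
TPM on a log axis of the 10 genes in all 24 libraries, ordered by the mean of the controls, with 1 point per library and triangles for libraries listed at 0. Chrng, Chrnd, and Chrna1 lie highest, Chrnb1 and Rapsn overlap, and Chrne lies below 1 TPM in every library.

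The epsilon subunit that replaces gamma in adult muscle was at the edge of detection. Chrne (ENSMUSG00000014609, chr11:70505707-70510125 in GRCm39, minus strand) had 0 to 5 estimated counts per library, 44 in all, and 4 libraries had 0. By condition the sums were 12, 7, 11, and 14 counts in the controls and at 1, 4, and 10 Hz, each over 6 libraries. Against 97867 counts of Chrng, Chrne made up 0.0449% of the counts of these alternative subunits (exact 95% binomial interval 0.0327% to 0.0603%, counting error only). Its share was 0.0412% without stimulation (0.0213% to 0.0720%), 0.0296% at 1 Hz (0.0119% to 0.0609%), 0.0451% at 4 Hz (0.0225% to 0.0807%), and 0.0675% at 10 Hz (0.0369% to 0.113%). All 4 intervals overlapped, so a switch from the fetal to the adult subunit was not detectable at this depth at any frequency. For each library the log2 ratio of Chrng to Chrne (TPM + 0.1) averaged 10.17 ± 0.70 without stimulation, and 10.41 ± 0.77, 9.63 ± 0.67, and 9.61 ± 0.50 at 1, 4, and 10 Hz (SD, n = 6). Exact two-sided permutation tests gave p = 0.578, 0.208, and 0.143 for the differences of 0.23, -0.54, and -0.56 (adjusted over 3 tests, 0.578, 0.312, and 0.312). With a pseudocount of 1 TPM the difference at 1 Hz was -0.32, so its sign depended on that choice.

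Among the 9 genes that could be tested, 1 was called at 1 Hz and none at 4 or 10 Hz. A call needed both an adjusted p under 0.05 and a log2(fold change) beyond 0.5 in either direction, from edgeR's quasi-likelihood test of the counts with Benjamini-Hochberg adjustment across the tested genes, and this is the source of the adjusted p-values of genes wherever no other tool is given. Dok7 was the gene called at 1 Hz, where 14.9% of all tested genes were called. At 4 Hz, 0 of 9 were called against 25.1% of all genes, and at 10 Hz 0 of 9 against 0.0376%. On adjusted p alone, 3 of 9 passed at 1 Hz (Dok7, Chrnd, and Agrn) where 37.3% of all genes passed. At 4 Hz, 2 of 9 passed (Dok7 and Agrn) against 51.4%, and at 10 Hz 0 of 9 against 0.0376%. For 1, 4, and 10 Hz in turn, 4, 3, and 1 of the 9 reached an unadjusted p under 0.05, as did 46.9%, 57.2%, and 8.07% of all genes. DESeq2's Wald test called 1, 0, and 0 of them.

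**Figure D2:**
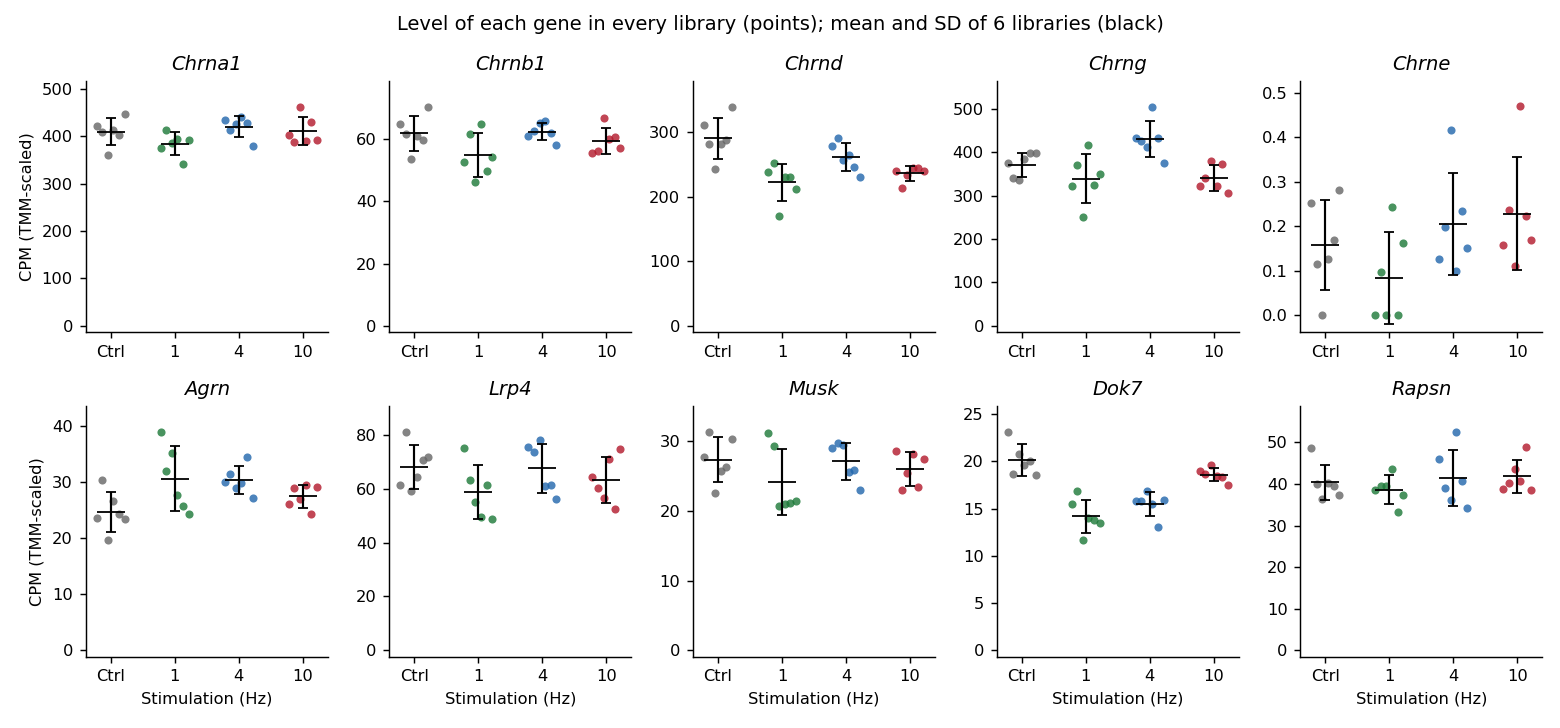
CPM of each gene in every library (points), with the mean and SD of 6 libraries per condition in black. Dok7 at 1 and 4 Hz is the only gene whose 6 points all lie below the 6 controls, and most other groups overlap their controls.

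The 9 genes had a median log2(fold change) of -0.17, 0.01, and -0.07 at 1, 4, and 10 Hz, beside 0.04, 0.06, and 0.01 for all tested genes. Of the 9 estimates, 8 were below 0 at 1 Hz, 4 at 4 Hz, and 6 at 10 Hz. These signs depended on the scale. On log2(TPM + 1) the median of all genes itself lay at -0.14, -0.21, and -0.01 for the 3 rates in the same order, so values on that scale are read relative to it, and tests on that scale were run on the uncentred values. In bulk samples, fewer cells of a type and less RNA per cell cannot be told apart.

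The alpha subunit, which carries most of the acetylcholine binding site, was the steadiest of the genes in CPM. Chrna1 (ENSMUSG00000027107, chr2:73393557-73410835, minus strand) had 360, 411, and 447 CPM as lowest, median, and highest control, then 341, 389, and 413 at 1 Hz, 380, 427, and 441 at 4 Hz, and 388, 398, and 461 at 10 Hz. The 4 ranges overlapped. Its log2(fold change) was -0.09 (SE 0.063, adjusted p = 0.257) at 1 Hz, 0.04 (SE 0.063, adjusted p = 0.619) at 4 Hz, and 0.01 (SE 0.063, adjusted p = 0.995) at 10 Hz. The 95% intervals ran from -0.22 to 0.04, -0.09 to 0.17, and -0.12 to 0.14, so in CPM a change of the size used for a call lay outside all 3. On the TPM scale Chrna1 lay at -0.30 and -0.29 at 1 and 4 Hz, past an adjusted p of 0.05 before centring (lowest over settings 0.0126 and 0.00952), and at -0.16 and -0.08 relative to all genes on log2(TPM + 1). Its SD within conditions was 0.094 on the log2 CPM scale, lower than that of all but 3.36% of the tested genes, whose median was 0.21.

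Chrnb1 (ENSMUSG00000041189, chr11:69674860-69686773, minus strand), the beta subunit, had 53.8, 61.3, and 70.4 CPM as lowest, median, and highest control. It had 46.1, 53.5, and 65.0 CPM at 1 Hz, 58.2, 62.4, and 65.8 at 4 Hz, and 55.7, 58.6, and 66.9 at 10 Hz. At 1 Hz, 3 of 6 libraries lay below all controls and the others overlapped. The log2(fold change) was -0.17 (SE 0.078, adjusted p = 0.0896) at 1 Hz, 0.01 (SE 0.078, adjusted p = 0.901) at 4 Hz, and -0.06 (SE 0.078, adjusted p = 0.937) at 10 Hz. On log2(TPM + 1) Chrnb1 lay at -0.45 and -0.41 at 1 and 4 Hz, or -0.30 and -0.21 relative to all genes, and the uncentred values passed on adjusted p (0.00518 and 0.00453).

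Chrnd and Chrng, which code for the delta and gamma subunits, sit side by side on chromosome 1 and had different values at 4 Hz, where Chrnd lay to the low and Chrng to the high side in CPM without passing the test. Chrnd (ENSMUSG00000026251, chr1:87118306-87127795, plus strand) ends 4584 bases before Chrng (ENSMUSG00000026253, chr1:87132379-87140416, plus strand) in GRCm39. Chrnd had 243, 285, and 338 CPM as lowest, median, and highest control, then 170, 230, and 252 at 1 Hz, 230, 260, and 291 at 4 Hz, and 213, 239, and 245 at 10 Hz. All conditions lay to the low side, with 5, 1, and 4 of 6 libraries below every control at 1, 4, and 10 Hz. For 1 Hz its log2(fold change) was -0.39 (SE 0.083, 95% interval -0.56 to -0.22, adjusted p = 0.000782), which passed on adjusted p and fell short of the fold threshold. At 4 Hz it was -0.15 (SE 0.083, adjusted p = 0.122) and at 10 Hz -0.30 (SE 0.083, unadjusted p = 0.00121, adjusted p = 0.194). Relative to all genes on log2(TPM + 1), Chrnd lay at -0.42, -0.23, and -0.29 at 1, 4, and 10 Hz.

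Chrng had 335, 380, and 399 CPM as lowest, median, and highest control, then 251, 338, and 418 at 1 Hz, 376, 430, and 505 at 4 Hz, and 305, 332, and 381 at 10 Hz. At 4 Hz, 5 of 6 libraries lay above every control, while at 1 and 10 Hz the groups overlapped the controls, with 3 of 6 libraries below every control in each and 1 above at 1 Hz. The log2(fold change) was -0.13 (SE 0.092, adjusted p = 0.266) at 1 Hz, 0.21 (SE 0.092, adjusted p = 0.0541) at 4 Hz, and -0.13 (SE 0.092, adjusted p = 0.813) at 10 Hz, so none passed. Relative to all genes on log2(TPM + 1) Chrng lay at -0.31 at 1 Hz and 0.01 at 4 Hz, and before that centring at -0.45 and -0.20. The 1 Hz value passed on adjusted p on that scale (0.00259, the lowest over its settings), and the higher gamma subunit at 4 Hz was not seen on it.

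Because a ratio within a library does not depend on how libraries are scaled, the subunits were also set against each other. This ratio was chosen after its values were seen, is untested, and is given as a description. The TPM ratio of Chrnd to Chrna1 was 1.22 ± 0.04 without stimulation, and 1.03 ± 0.14, 1.10 ± 0.06, and 1.00 ± 0.07 at 1, 4, and 10 Hz (SD, n = 6). All 18 stimulated libraries lay below the lowest control, 1.19, the highest of them at 1.18. This held for the TPM ratio to Chrna1 of 12 of 13314 tested genes (0.0901%). The ratio was picked from several, and all 18 libraries are set against the same 6 controls, so that share is not a p-value. As a CPM ratio, which leaves the length estimate of each library aside, 16 of 18 lay below every control, and 0.661% of genes had 16 or more below. Chrnd to Chrng had TPM ratios of 0.633 ± 0.047 without stimulation, and 0.583 ± 0.031, 0.537 ± 0.027, and 0.571 ± 0.040 at 1, 4, and 10 Hz, with 14 of 18 stimulated libraries below every control. No share over all genes was computed for ratios to Chrng. For Chrnb1 to Chrna1, 14 of 18 libraries lay below and 1 above all controls in TPM, where 2.46% of genes had 14 or more below. In CPM 11 lay below and 1 above, where 12.6% of genes had 11 or more below. For Chrng to Chrna1, 5 lay below and 2 above in TPM, and 5 below and 5 above in CPM.

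**Figure D3:**
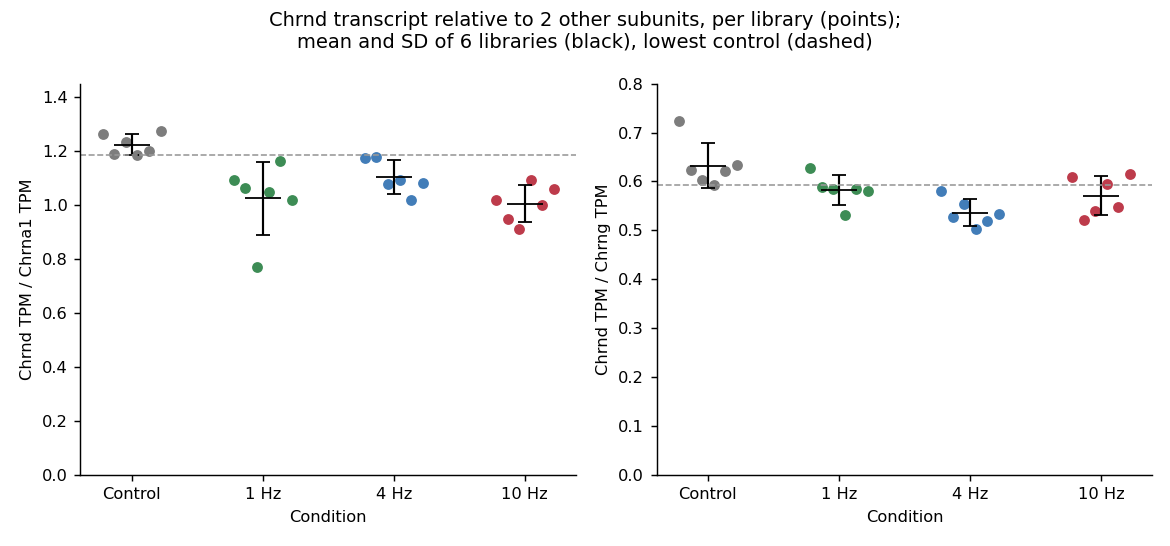
TPM of Chrnd divided by that of Chrna1 (left) and of Chrng (right) in every library, with the mean and SD of 6 libraries in black and the lowest control as a dashed line. On the left all 18 stimulated libraries lie below the lowest control, and on the right 14 of 18 do.

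Of the signalling chain, Agrn and Dok7 passed on adjusted p at both 1 and 4 Hz, in opposite directions. Agrn (ENSMUSG00000041936, chr4:156249740-156282014, minus strand), the secreted organizer, had 19.6, 23.9, and 30.4 CPM as lowest, median, and highest control, 24.3, 29.8, and 39.0 at 1 Hz, 27.1, 29.9, and 34.6 at 4 Hz, and 24.4, 27.9, and 29.4 at 10 Hz. The groups overlapped, with 3 of 6 libraries at 1 Hz and 2 of 6 at 4 Hz above every control. The log2(fold change) was 0.30 (SE 0.106, adjusted p = 0.0275) at 1 Hz, 0.29 (SE 0.107, adjusted p = 0.0245) at 4 Hz, and 0.15 (SE 0.107, adjusted p = 0.804) at 10 Hz, all under the fold threshold. Over the alternative settings the adjusted p of Agrn ran from 0.00616 to 0.169 at 1 Hz and from 0.0110 to 0.980 at 4 Hz, the widest span among the genes past the adjusted p against the control. Relative to all genes on log2(TPM + 1) Agrn lay at 0.39 and 0.21, and before centring at 0.24 and 0.00. The counts do not separate the nerve and muscle splice forms.

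Lrp4 (ENSMUSG00000027253, chr2:91287797-91344248, plus strand), the agrin receptor, had 59.1, 67.7, and 81.1 CPM as lowest, median, and highest control, 48.6, 58.3, and 75.3 at 1 Hz, 56.3, 67.5, and 77.9 at 4 Hz, and 52.6, 62.2, and 74.7 at 10 Hz. All ranges overlapped. The log2(fold change) was -0.21 (SE 0.110, adjusted p = 0.126), -0.01 (SE 0.110, adjusted p = 0.932), and -0.11 (SE 0.110, adjusted p = 0.901) at 1, 4, and 10 Hz.

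Musk (ENSMUSG00000057280, chr4:58285931-58377847, plus strand), the kinase, had 22.5, 27.0, and 31.3 CPM as lowest, median, and highest control, 20.7, 21.3, and 31.2 at 1 Hz, 23.0, 27.5, and 29.7 at 4 Hz, and 23.1, 26.4, and 28.5 at 10 Hz. At 1 Hz its libraries were split, with 4 of 6 below every control and the others near the highest control. The log2(fold change) was -0.18 (SE 0.107, adjusted p = 0.179), -0.01 (SE 0.108, adjusted p = 0.924), and -0.07 (SE 0.107, adjusted p = 0.951).

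Dok7 (ENSMUSG00000044716, chr5:35213886-35246018, plus strand), the adaptor that activates MuSK from inside the cell, was the only gene of the 9 with all libraries of a frequency below all controls. It had 18.6, 19.8, and 23.1 CPM as lowest, median, and highest control, 11.7, 13.9, and 16.8 at 1 Hz, 13.1, 15.8, and 16.8 at 4 Hz, and 17.5, 18.5, and 19.7 at 10 Hz. The 1 and 4 Hz groups did not overlap the controls, which held for 8.58% of all genes at 1 Hz and 14.7% at 4 Hz in the same direction, while the 10 Hz group did, with 3 of 6 libraries below. At 1 Hz Dok7 fell by 0.50 on the log2 scale (SE 0.083, 95% interval -0.67 to -0.33, adjusted p = 4.89e-05), to 0.706 of the control level. At 4 Hz the log2(fold change) was -0.38 (SE 0.084, 95% interval -0.55 to -0.21, adjusted p = 0.000584), and at 10 Hz -0.11 (SE 0.082, adjusted p = 0.809). The call at 1 Hz rested on a value next to the fold threshold. It was lost without the 3 libraries named above (-0.48), under 3 other settings, and without any 1 of 4 libraries, while the adjusted p over all alternatives ran from 3.54e-08 to 0.00487.

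**Figure D4:**
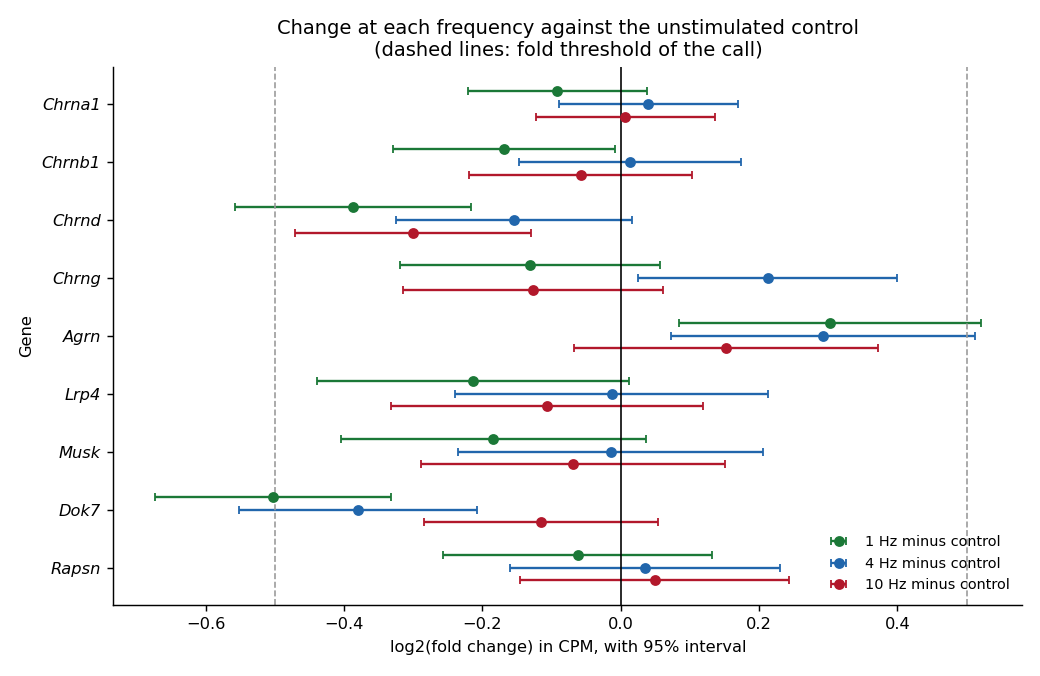
Log2(fold change) in CPM of the 9 tested genes at 1, 4, and 10 Hz against the control (points) with 95% intervals (bars), 6 libraries per condition. Dok7 at 1 Hz lies at the dashed fold threshold of 0.5. The points of Chrnd lie below 0 at each frequency and those of Agrn above 0. The intervals of Chrnd at 4 Hz and of Agrn at 10 Hz include 0.

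Rapsn (ENSMUSG00000002104, chr2:90865892-90876082, plus strand), the anchor of the receptor, had 36.4, 39.8, and 48.5 CPM as lowest, median, and highest control, 33.3, 39.1, and 43.6 at 1 Hz, 34.1, 39.8, and 52.5 at 4 Hz, and 38.6, 40.5, and 49.0 at 10 Hz. No group stood apart. The log2(fold change) was -0.06 (SE 0.095, adjusted p = 0.634), 0.04 (SE 0.095, adjusted p = 0.777), and 0.05 (SE 0.095, adjusted p = 0.966) at 1, 4, and 10 Hz. Rapsn, Chrna1, Chrne, Musk, and Agrn each share ground with a gene annotated on the other strand, and the sources used here name a directional kit without saying how counting used strand.

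The frequencies were then compared with each other, which shows whether 10 Hz differed from the slower rates. No gene of the 9 was called at 4 Hz against 1 Hz (0% of all genes), at 10 Hz against 1 Hz (10.8%), or at 10 Hz against 4 Hz (21.2%). DESeq2's Wald test also called 0 in each. On adjusted p alone, 0 passed at 4 Hz against 1 Hz (0%), 1 at 10 Hz against 1 Hz (27.9%), and 2 at 10 Hz against 4 Hz (46.3%). An unadjusted p under 0.05 was reached by 4, 1, and 2 of the 9, beside 11%, 40.6%, and 53.4% of all genes.

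Dok7 at 10 Hz was higher than at 1 Hz by 0.39 (SE 0.084, adjusted p = 0.00143) and higher than at 4 Hz by 0.26 (SE 0.085, adjusted p = 0.0129) on the log2 scale, with 6 of 6 libraries above those of the slower rate in each, as in 5.04% and 10.8% of all genes. The difference between the rates was thus itself past the adjusted p, and under the fold threshold. Chrng at 10 Hz was lower than at 4 Hz by a log2(fold change) of -0.34 (SE 0.092, adjusted p = 0.00413), with 5 of 6 libraries below. On log2(TPM + 1) that difference was 0.05 (adjusted p = 0.754) where the median of all genes was 0.20, so Chrng did not pass on that scale and lay at -0.16 relative to all genes. From 1 Hz to 4 Hz the values were 0.34 for Chrng (unadjusted p = 0.000871, adjusted p = 0.259) and 0.23 for Chrnd (unadjusted p = 0.00952, adjusted p = 0.375), which did not pass.

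Other genes of the synapse were read from 8 lists with 83 genes, of which 62 were tested. At 1 Hz, 8 were called, 2 higher and 6 lower, and at 4 Hz 12, 4 higher and 8 lower. At 10 Hz edgeR called 0, beside 0.0376% of all tested genes, and DESeq2's Wald test also called 0. At that rate 10 of 62 had an unadjusted p under 0.05, beside 8.07% of all tested genes. The 12.9% and 19.4% of the 62 called at 1 and 4 Hz stand beside 14.9% and 25.1% of all tested genes. At these 2 rates the share was thus not above that of all genes. On log2(TPM + 1), 8 of 9 calls at 1 Hz and 15 of 16 at 4 Hz were lower, as were 89.6% and 90.5% of the calls over all genes on that scale. In CPM the 62 had a median log2(fold change) of 0.03, -0.01, and 0.04 at 1, 4, and 10 Hz.

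The list around agrin and MuSK signalling had 17 tested genes, with 2 called at 1 Hz and 3 at 4 Hz, all lower, or 11.8% and 17.6%, below the 14.9% and 25.1% of all genes. Crk, an adaptor recruited by phosphorylated Dok7, had 248.8, 279, and 293 CPM as lowest, median, and highest control, then 174, 199, and 229 at 1 Hz, 138, 178, and 214 at 4 Hz, and 210, 256, and 289 at 10 Hz. Neither slower rate overlapped the controls, as in 8.58% of all genes at 1 Hz and 14.7% at 4 Hz in that direction. At 4 Hz Crk fell by 0.61 on the log2 scale (adjusted p = 1e-05). At 1 Hz its log2(fold change) was -0.44 (adjusted p = 0.000666), under the fold threshold. Yes1, a kinase of the Src family, fell by 0.50 (adjusted p = 0.000692) at 1 Hz and by 0.71 (adjusted p = 8.28e-06) at 4 Hz. Apc, which binds the receptor and microtubules, fell by 0.55 (adjusted p = 0.0162) and by 0.70 (adjusted p = 0.00191). None of the 10 tested scaffold genes was called by edgeR at either rate, beside 14.9% and 25.1% of all genes. An unadjusted p under 0.05 was reached by 5 at 1 Hz and 3 at 4 Hz, as by 46.9% and 57.2% of all genes. On log2(TPM + 1) before centring, Dag1 at 1 Hz (-0.55) and Plec (-0.55) and Nes (-0.69) at 4 Hz were called. Relative to all genes these lay at -0.41, -0.34, and -0.48. None of the 6 tested genes of receptor assembly and glycosylation was called by edgeR either, with 3 and 3 at that unadjusted p, beside the same shares.

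In the cleft, 2 of 8 tested genes were called at 4 Hz, beside 25.1% of all genes, and none at 1 Hz, beside 14.9%. At 1 Hz 3 had an unadjusted p under 0.05, as did 46.9% of all genes. Ache, the enzyme that breaks down acetylcholine, had 9.21, 11.4, and 13.2 CPM as lowest, median, and highest control and 17.0, 19.0, and 19.6 at 4 Hz. The groups did not overlap, as in 12.9% of all genes at 4 Hz in that direction. Ache rose by 0.75 on the log2 scale (adjusted p = 1.18e-06), where the 1 Hz value was 0.36 (adjusted p = 0.00635). Colq, the collagen tail that anchors this enzyme, had 10.8, 12.8, and 15.1 CPM in the controls and 17.6, 18.1, and 20.4 at 4 Hz, a rise of 0.52 (adjusted p = 0.00657). At 10 Hz Colq had 8.28, 8.65, and 10.4 CPM, with all 6 libraries below the controls, as in 0.864% of all genes. Its log2(fold change) of -0.52 did not pass (unadjusted p = 0.00295, adjusted p = 0.264). Relative to all genes on log2(TPM + 1), Ache lay at 0.56 and Colq at 0.39 at 4 Hz, and neither was called on that scale.

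Of the neuregulin, ErbB, and ETS factor list, 1 of 8 tested genes was called at 1 Hz and 2 at 4 Hz, all lower, shares close to those of all genes (14.9% and 25.1%). Erbb2, a coreceptor of neuregulin, had 35.8, 38.6, and 40.3 CPM as lowest, median, and highest control, 18.7, 20.5, and 28.2 at 1 Hz, and 17.1, 20.7, and 25.9 at 4 Hz. Neither rate overlapped the controls, as in 8.58% of all genes at 1 Hz and 14.7% at 4 Hz in that direction. Erbb2 fell by 0.82 (adjusted p = 5.41e-07) and by 0.81 (adjusted p = 3.3e-07). Gabpb2, a partner of the factor that binds the N-box, fell by 0.56 (adjusted p = 0.00948) at 4 Hz, and was not called on log2(TPM + 1), where it lay at -0.25 relative to all genes.

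Among 12 tested regulators that bind E-boxes or respond to activity, 2 were higher (Myf5 and Hdac9) and 2 lower (Myog and Myod1) at each of the slower rates. These 33.3% at each rate stand beside 14.9% of all genes at 1 Hz and 25.1% at 4 Hz. Myog, or myogenin, which is known to activate the receptor subunit genes, had 459, 590, and 599 CPM as lowest, median, and highest control, then 182, 224, and 242 at 1 Hz, 193, 203, and 217 at 4 Hz, and 438, 495, and 507 at 10 Hz. It fell by 1.34 (adjusted p = 1.23e-12) at 1 Hz and by 1.47 (adjusted p = 1.54e-13) at 4 Hz. In CPM none of the 4 tested subunit genes was called at these rates, beside 14.9% and 25.1% of all genes, with Chrnd past the adjusted p at 1 Hz (-0.39). On log2(TPM + 1) Chrnd was called at 1 Hz (-0.57 before centring, -0.42 relative to all genes). A link between Myog and the subunit genes was not tested. Hdac9, a repressor linked to denervation, rose by 0.57 (adjusted p = 0.00147) and by 0.59 (adjusted p = 0.000643), and was not called on log2(TPM + 1). Of 11 other nicotinic subunits, only Chrnb2 was tested, and it fell by 0.91 (adjusted p = 0.00289) and by 0.70 (adjusted p = 0.0125) from a median of 2.45 CPM. None of the 5 muscarinic receptors had enough counts for a test.

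**Figure D5:**
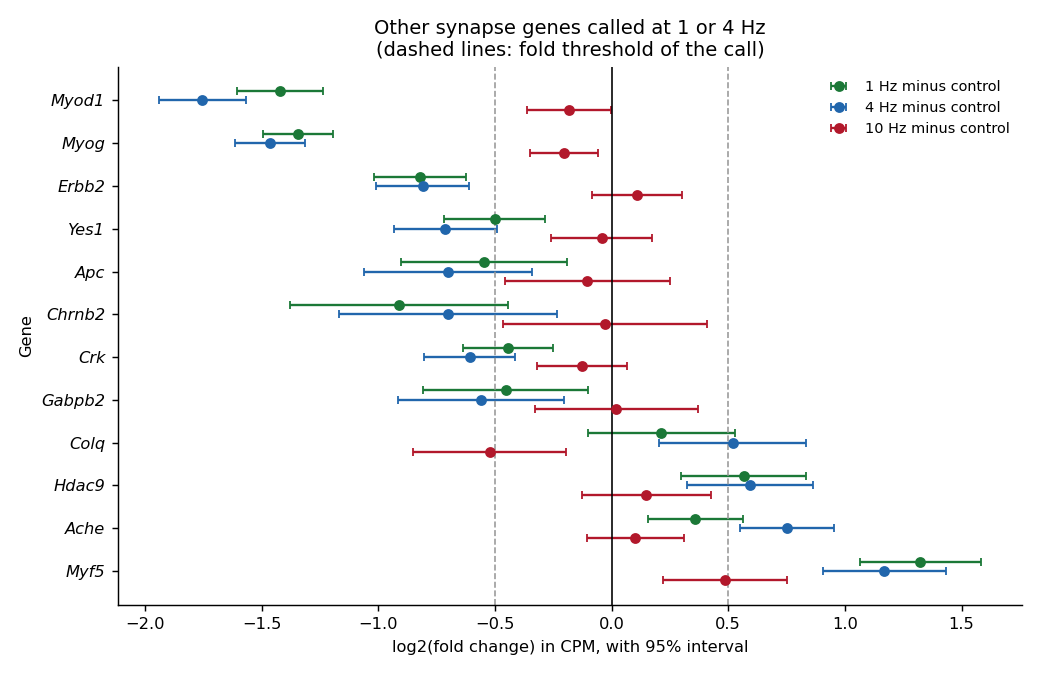
Log2(fold change) in CPM, with 95% intervals, at 1, 4, and 10 Hz against the control for the 12 other synapse genes called at 1 or 4 Hz. Myog and Erbb2 lie below 0 at 1 and 4 Hz, and Ache and Colq lie above 0 at 4 Hz.

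The genes were last compared by how they varied from library to library. Over deviations from the condition means in 24 libraries, the 36 pairs of the 9 genes had Pearson r from -0.257 to 0.816 with a median of 0.333, and 29 were positive. Chrna1 and Chrnb1 had r = 0.739. The libraries share depth and scaling, so these are descriptions. Among all tested genes, the deviations most like those of Chrna1 were those of Reep5 (r = 0.862), Fos (0.861), Mc4r (0.858), Ier5 (0.856), and Hspb1 (0.855), and across the 24 libraries as they stand they were Hspb1 (0.811), Slc8b1 (0.797), Porcn (0.779), Ptgis (0.773), and Hspa1b (0.772).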

How the data were processed

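RNA was measured by paired-end RNA-seq in 24 libraries of C2C12 muscle sheets, 6 biological replicates for each of 4 conditions, grouped by the sample titles. The authors deposited estimated counts and TPM per gene. Per the study's methods, libraries were made with a directional kit, reads were aligned to GRCm39 by BWA-MEM, quality measures came from bedtools, and the nf-core/rnaseq pipeline was run with GRCm39 and Ensembl annotation. The submitters' processing notes also name STAR and Salmon, BWA 0.7.12-r1039, bedtools 2.25.0, and the builds mm10 and hg19 with no role. The strand setting of the counting is not given in the sources used here. The labels add that low-input samples were prepared by ribodepletion in place of poly(A) selection, without naming them. Of the estimated counts, 6.15% were not whole (tolerance 0.001), and all were rounded.

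Genes were kept by edgeR's filterByExpr (minimum count 10, minimum total 15), scaled by TMM, and tested with edgeR 4.0.16 in R 4.3.3 by the robust quasi-likelihood test, fitting the 24 libraries together and adjusting p by Benjamini-Hochberg over 13315 genes. Intervals are 95% intervals. The p-values measure the spread between replicates, and the common biological coefficient of variation was 14.8%. CPM values are TMM-scaled. Genes were matched to GENCODE by gene ID. The alternatives were RLE and upper-quartile factors, no filter, a filter of 50 counts in 6 libraries, a replicate block, DESeq2 1.42.0 with and without apeglm 1.24.0 shrinkage, limma 3.58.1 on log2(TPM + 1) and log2(TPM + 0.1), 2 groups in the fit, no fold threshold, and each library left out. The tests were run on simulated counts with a small set of genes changed at 1 Hz and the same spread for every gene. Shifts between TPM and CPM, and changes near the fold threshold, were not simulated. The members and lists were chosen with earlier results of these data known. All 10 genes are named, with up to 3 called genes in each direction from each list of other synapse genes, marker genes where a sum is given, and the 5 genes most like Chrna1 by each measure.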

Additional observations from a re-analysis of the deposited data

Results flagged for a closer look

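In 4 of 44 groups of 6 libraries tested, 1 library stood apart by Dixon's test for a gap at the edge of the range, where chance marks about 1 in 20 groups. Chrnd in 10 Hz replicate 2 had 212.8 CPM, the lowest of its condition. Dok7 in 4 Hz replicate 5 had 13.08 CPM, also the lowest. Rapsn in control replicate 1 had 48.54 CPM, the highest control. Chrne in 10 Hz replicate 4 had 0.4703 CPM, which rests on 5 estimated counts.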

How the results depend on the processing

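The number of the 9 genes called at 1 Hz, 1 as reported, was 0 with upper-quartile factors, with apeglm shrinkage, with 2 groups in the fit, and without the 3 libraries that stood apart in TPM against CPM (an alternative chosen after seeing the data). It was 2 on log2(TPM + 1) and on log2(TPM + 0.1), and 3 with no fold threshold. At 4 Hz it was 1 on both TPM scales and 2 with no fold threshold. At 10 Hz against 1 Hz it was 1 on log2(TPM + 0.1) and 1 with no fold threshold, and at 10 Hz against 4 Hz 1 and 2. Leaving out 1 library gave 0 to 1 at 1 Hz, with 0 without control replicates 1 or 3 or 1 Hz replicates 3 or 5, and 0 to 0 at 4 Hz. In these 1 Hz settings Dok7 kept its direction, at -0.48 with upper-quartile factors, -0.50 with apeglm and with 2 groups, -0.48 without the 3 libraries, and -0.56 to -0.46 with a library left out. The genes added on the TPM scale were Chrnd at 1 Hz (-0.57) and Dok7 at 4 Hz (-0.55 and -0.60), from values not centred on the median of all genes. Relative to that median on log2(TPM + 1) they lay at -0.42 and -0.34. The cause of these shifts was not tested.

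With no fold threshold, 24 of the 62 other synapse genes were called at 1 Hz and 29 at 4 Hz, beside 37.3% and 51.4% of all tested genes. With 2 groups in the fit 1 was called at 10 Hz, where 23 of 12867 genes were called. With a library left out, 6 to 10, 11 to 14, and 0 to 0 of these synapse genes were called at 1, 4, and 10 Hz. The Chrng to Chrne log2 ratio at 1 Hz was reversed to -0.32 with a pseudocount of 1 TPM, and ran from 0.06 to 0.49 with a library left out, from -0.72 to -0.29 at 4 Hz, and from -0.70 to -0.31 at 10 Hz.

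Directions turned only for genes that did not pass at the fold threshold, and the TPM values here are not centred. At 4 Hz Chrna1 was -0.0046 with no filter and -0.29 and -0.29 on the TPM scales. Chrnb1 was -0.012 with RLE, -0.030 with no filter, -0.018 with DESeq2, -0.017 with apeglm, -0.41 and -0.42 on the TPM scales, -0.013 with 2 groups, and -0.0098 without the 3 libraries. Chrng was -0.20 on both TPM scales, Rapsn -0.0088 with no filter and -0.27 and -0.28 on the TPM scales, and with upper-quartile factors Musk was 0.018 and Lrp4 0.020. Chrna1 at 10 Hz was -0.0036 with no filter and -0.015 on both TPM scales, and Chrng at 10 Hz against 4 Hz was 0.047 on both. With a library left out, the 4 Hz values ran from -0.012 to 0.066 for Chrna1, -0.041 to 0.052 for Chrnb1, -0.081 to 0.030 for Musk, -0.075 to 0.093 for Rapsn, and -0.088 to 0.043 for Lrp4, and the 10 Hz values from -0.030 to 0.034 for Chrna1 and -0.00084 to 0.11 for Rapsn.

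Replicate numbers did not pair the libraries: over 36 same-numbered pairs the correlation of deviations ran from -0.332 to 0.242, and 3 were over 0.1. In 4 of these 36 comparisons the library with the same number was the best match in the other condition. With the number as a replicate block, 1 of the 9 genes was called at 1 Hz (Dok7, -0.50), and 8, 13, and 0 of the other synapse genes at 1, 4, and 10 Hz. Chrne had too few counts for the test across genes, and depth and a low level cannot be told apart there.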
